A study of Sus scrofa with 23 samples.

Results

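The genes described here mark the 2 cell layers of brain blood vessels, the endothelial cells that line the lumen and the mural cells (pericytes and smooth muscle cells) that wrap them. They were chosen by name, as the rows of the deposited gene count table whose pig Ensembl symbol is 1 of 10 listed genes. Of the 10, 8 were found among 25880 genes (14857 with a symbol), namely the endothelial genes PECAM1, CDH5, FLT1 and TEK and the mural genes PDGFRB, RGS5, ACTA2 and TAGLN. CLDN5 and VWF were not matched and are not analysed here. All 8 were among the 15049 genes that passed the filter on low counts.

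The libraries came from prefrontal cortex of adolescent female Danish slaughter pigs of 20 kg. Each pig received a single intravenous dose of saline or of 0.08 mg/kg psilocybin while awake, and was killed with intravenous pentobarbital 1 day or 1 week afterwards. Psilocybin is the prodrug of psilocin, a psychedelic that acts on serotonin receptors. The design text gives 6 animals a group, and the 23 libraries, 1 per animal, were 5 from saline at 1 day and 6 from each of psilocybin at 1 day, saline at 1 week and psilocybin at 1 week. All groups share the injection and the killing by pentobarbital, and no untreated pig is among them. Whole brains were snap frozen and polyadenylated RNA from the tissue was sequenced, so each value is a mixture over all cells of the piece, in which fewer cells of a type and less RNA per cell cannot be told apart.

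Endothelial cells of the brain are joined by adherens and tight junctions and carry the transporters of the blood-brain barrier. They respond to vascular endothelial growth factor (VEGF) and angiopoietins, and they recruit pericytes by releasing the growth factor PDGF-B, which acts on its receptor on mural cells. Pericytes cover capillaries, while contractile smooth muscle cells surround arterioles and arteries.

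Total counts ran from 9504421 to 18654626 per library. The labels record a batch, 1 or 2, crossed with the groups: 3 animals of each group were in each batch, except saline at 1 day with 2 in batch 1 and 3 in batch 2. The labels do not say what the batch was, and it entered every fit as a term. Neuron genes were at high levels, with SNAP25 at a mean of 2720 CPM (the count scaled to library size) and the excitatory neuron gene SLC17A7 at 1100 CPM, against 1.97 CPM for the choroid plexus gene TTR. The myelin gene MBP had a mean of 5200 CPM and ran from 1820 to 16000 CPM between animals. The first principal component was computed over all tested genes after batch means were removed. On it 3 libraries stood apart, with scores of 28.34 to 40.06. They were the libraries titled cor_sal_1d_420 (saline at 1 day), cor_sal_1w_245 (saline at 1 week) and cor_psi_1w_427 (psilocybin at 1 week). Results that rest on them are given with and without them where both were run. Of the other libraries, cor_psi_1d_255 had 20.13 and the rest at most 9.03, so the cut at 3 was a choice.

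Per kilobase of exon, the mural genes RGS5 and PDGFRB had the highest levels of the 8 and TEK the lowest. RGS5, which encodes a regulator of G-protein signalling rich in pericytes, had a mean of 22.3 ± 3.4 RPKM (CPM divided by exon length in kilobases; SD, n = 23). PDGFRB, the receptor for PDGF-B, followed at 10.8 ± 1.8 RPKM and lay below RGS5 in 23 of 23 animals. FLT1, which encodes VEGF receptor 1, had 5.33 ± 1.54 RPKM. CDH5, which encodes the adherens junction protein VE-cadherin, had 3.82 ± 1.08 RPKM and lay below FLT1 in 22 of 23 animals. These upper steps of the order hardly crossed between animals, whereas the lower ones did. PECAM1, an adhesion molecule of endothelial junctions, averaged 2.34 ± 0.504 RPKM and exceeded TAGLN in 17 of 23 animals. TAGLN, which encodes the actin-binding protein transgelin of smooth muscle, averaged 1.72 ± 0.373 RPKM and exceeded ACTA2, the smooth muscle actin gene, at 1.36 ± 0.356 RPKM in 18 of 23 animals. TEK, which encodes the angiopoietin receptor TIE2, averaged 1.1 ± 0.234 RPKM and lay below ACTA2 in 18 of 23 animals, so the spread of those 3 genes overlapped.

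The genes also differed in how much they varied between animals. The coefficient of variation over the 23 animals was 15.3% for RGS5 and 16.7% for PDGFRB, near the median of 17.2% over all tested genes. It was 28.3% for CDH5 and 28.9% for FLT1, the highest of the 8. The read numbers behind these values ranged from 1048 to 2552.5 per library for RGS5, the best covered gene, down to 28.5 to 101 for TAGLN. Relative to the level, counting error is therefore largest for TAGLN.

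The first question of the design was whether 1 dose of psilocybin went with another level of vessel genes 1 day later. No endothelial gene passed the test, and for each of the 4 the animals of the psilocybin and saline groups overlapped. PECAM1 (ENSSSCG00000017277, pig build susScr11, chromosome 12, 14636641 to 14723295, plus strand) shares part of its locus with MILR1 on the other strand, and reads were counted without strand. In the saline animals at 1 day it had 12.6, 18.1, 21.1, 22.1 and 24.9 CPM, and after psilocybin the lowest, median and highest of 6 animals were 15.7, 19.5 and 26.1 CPM. The saline range held all psilocybin animals but those above 24.9 CPM, and the log2 fold change was 0.05 ± 0.19 (SE; 95% interval -0.33 to 0.44). CDH5 (ENSSSCG00000035772, chromosome 6, 27108499 to 27142921, plus strand) had 9.9, 15.7, 16.6, 21.7 and 30.6 CPM in the saline animals. After psilocybin it ran from 14.1 through a median of 18.3 to 23.1 CPM. All 6 psilocybin animals thus lay inside the saline range, and the log2 fold change was 0.03 ± 0.22 (SE).

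The 2 endothelial receptors showed the same overlap. FLT1 (ENSSSCG00000009320, chromosome 11, 5619970 to 5794957, minus strand) had 18.1, 24.6, 33.8, 44.6 and 48.9 CPM in the saline animals at 1 day, and 31.2, 40.8 and 43.1 CPM as the lowest, median and highest after psilocybin. All 6 psilocybin animals lay inside the saline range. Their log2 fold change of 0.24 ± 0.23 (SE; 95% interval -0.24 to 0.72) was the largest of the 8 at 1 day, with adjusted p = 1 in edgeR's quasi-likelihood test with Benjamini-Hochberg adjustment. It was 0.07 without the 3 libraries standing apart, among them the saline animal at 18.1 CPM. TEK (ENSSSCG00000005122, chromosome 1, 195937431 to 196052751, minus strand) had 6.27, 6.93, 7.57, 9.08 and 11.6 CPM after saline, and 6.09, 7.42 and 11 CPM after psilocybin. The ranges coincided almost wholly, with a log2 fold change of -0.04 ± 0.17 (SE).

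Mural genes gave the same picture at 1 day. PDGFRB (ENSSSCG00000022741, chromosome 2, 151155754 to 151192816, minus strand) had 36.6, 58.9, 60.5, 62.9 and 74.9 CPM in the saline animals and 53.7, 64.1 and 66.8 CPM as the lowest, median and highest after psilocybin. Only saline animal cor_sal_1d_420, at 36.6 CPM, lay far below the psilocybin range, and the log2 fold change was 0.08 ± 0.15 (SE). RGS5 (ENSSSCG00000037821, chromosome 4, 87286910 to 87344289, plus strand) had 102, 116, 127, 130 and 134 CPM after saline. After psilocybin it had 104, 115 and 150 CPM. The log2 fold change of 0.007 ± 0.11 (SE; 95% interval -0.23 to 0.24) had the narrowest interval of the 8.

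ACTA2 (ENSSSCG00000010447, chromosome 14, 100865313 to 100886984, minus strand) is close in sequence to the other actin genes, so its counts are uncertain where reads could fit several copies. Fractional counts were not particular to ACTA2: 73.9% of its values were whole, against 34.8% for RGS5 and 52.2% for PDGFRB. ACTA2 had 4.95, 5.59, 5.78, 6.82 and 8.29 CPM in the saline animals at 1 day and 4.76, 6.2 and 9.07 CPM after psilocybin. The groups overlapped over most of their ranges, with a log2 fold change of 0.08 ± 0.20 (SE). TAGLN (ENSSSCG00000015073, chromosome 9, 44560785 to 44567385, plus strand) overlaps PCSK7 on the other strand, with the same limit of unstranded counting as PECAM1. It had 3.25, 3.8, 5.16, 5.38 and 6.19 CPM after saline and 2.89, 4.4 and 6.54 CPM after psilocybin. Here the psilocybin animals spanned the whole saline range, and the log2 fold change was -0.03 ± 0.19 (SE).

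**Figure D1:**
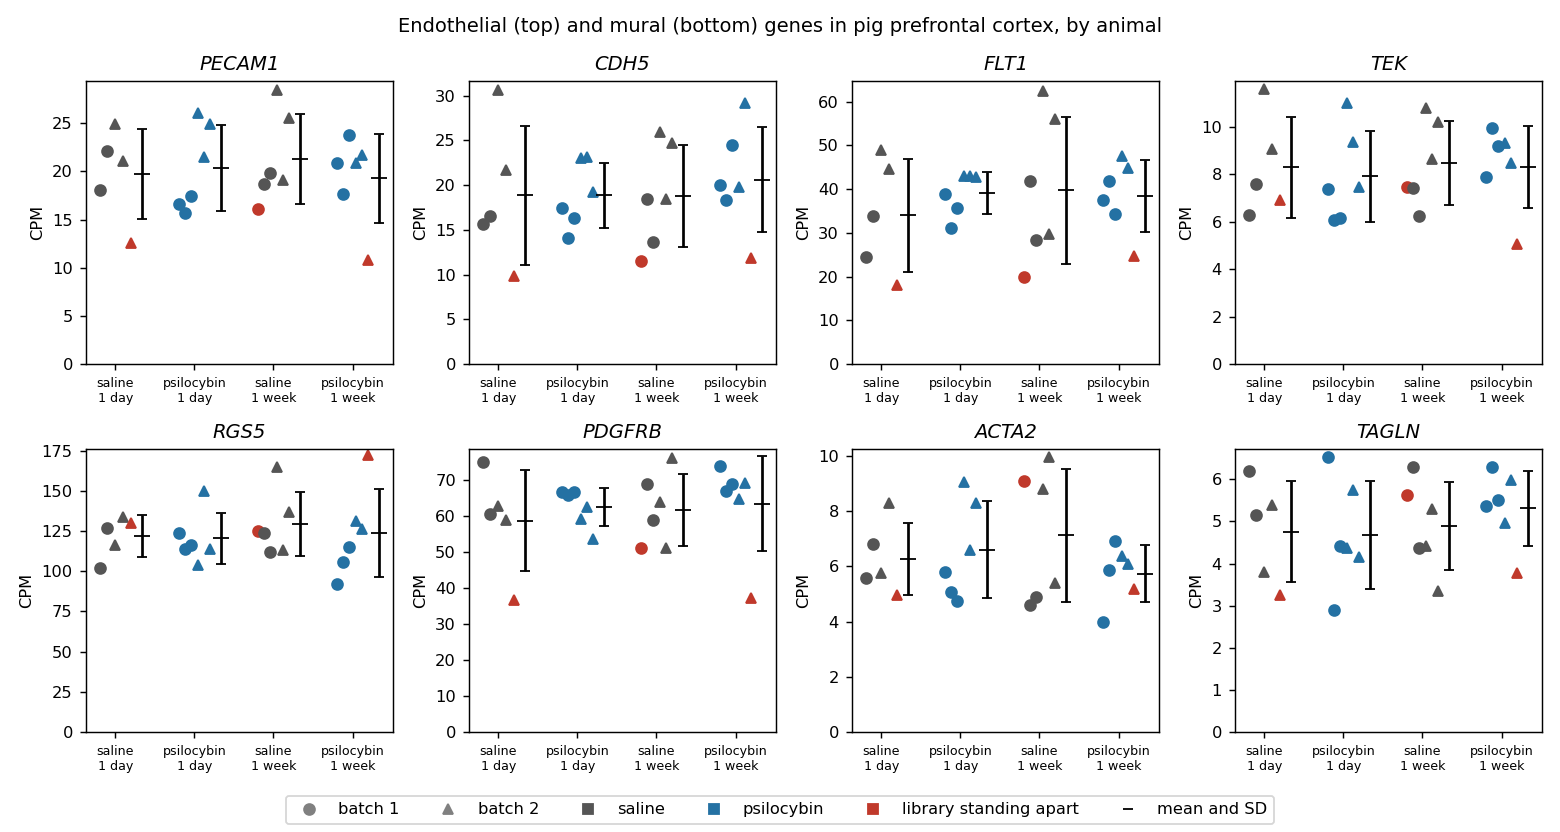
Level of each of the 8 genes in CPM (vertical axes) in every animal, by treatment and time group, with each point an animal and its batch and the 3 libraries standing apart marked. The groups overlap for every gene, as for CDH5, where saline at 1 day spans 9.9 to 30.6 CPM and psilocybin at 1 day 14.1 to 23.1 CPM.

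One week after the injection no endothelial gene passed the test either. PECAM1 had 16.1, 19.5 and 28.5 CPM as the lowest, median and highest of 6 saline animals, and 10.8, 20.9 and 23.8 CPM after psilocybin. Its log2 fold change was -0.13 ± 0.18 (SE), and the animal at 10.8 CPM was animal cor_psi_1w_427. CDH5 had 11.5, 18.5 and 25.9 CPM after saline and 11.9, 19.9 and 29.2 CPM after psilocybin, with a log2 fold change of 0.17 ± 0.21 (SE; 95% interval -0.27 to 0.61). The 2 ranges started together and the psilocybin range reached slightly higher. FLT1 spread widest in this saline group, with 19.9, 35.8 and 62.5 CPM, and its psilocybin animals, at 24.7, 39.7 and 47.5 CPM, all lay inside that range. The FLT1 log2 fold change was -0.02 ± 0.22 (SE). TEK had 6.23, 8.05 and 10.8 CPM after saline and 5.08, 8.82 and 9.95 CPM after psilocybin, for a log2 fold change of 0.002 ± 0.17 (SE).

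Among the mural genes at 1 week, ACTA2 had the largest log2 fold change, -0.31 ± 0.20 (SE; 95% interval -0.71 to 0.10; adjusted p = 1 in edgeR's quasi-likelihood test with Benjamini-Hochberg adjustment). Its saline animals had 4.61, 7.1 and 9.96 CPM as the lowest, median and highest, and its psilocybin animals 3.99, 5.99 and 6.93 CPM. All psilocybin animals lay below the saline median, but the lower ends of the groups overlapped, and the log2 fold change was -0.09 without the 3 libraries standing apart, of which saline animal cor_sal_1w_245 had 9.11 CPM. PDGFRB had 51, 61.4 and 76.1 CPM after saline and 37.3, 67.9 and 73.8 CPM after psilocybin, with a log2 fold change of 0.03 ± 0.14 (SE). The value of 37.3 CPM was animal cor_psi_1w_427, far below the next psilocybin animal at 64.7 CPM. RGS5 had 112, 125 and 165 CPM after saline and 92.2, 121 and 172 CPM after psilocybin, so the psilocybin animals reached beyond the saline range at both ends, with a log2 fold change of -0.07 ± 0.11 (SE). TAGLN had 3.35, 4.85 and 6.29 CPM after saline and 3.78, 5.44 and 6.3 CPM after psilocybin, nearly coinciding ranges with a log2 fold change of 0.12 ± 0.18 (SE).

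**Figure D2:**
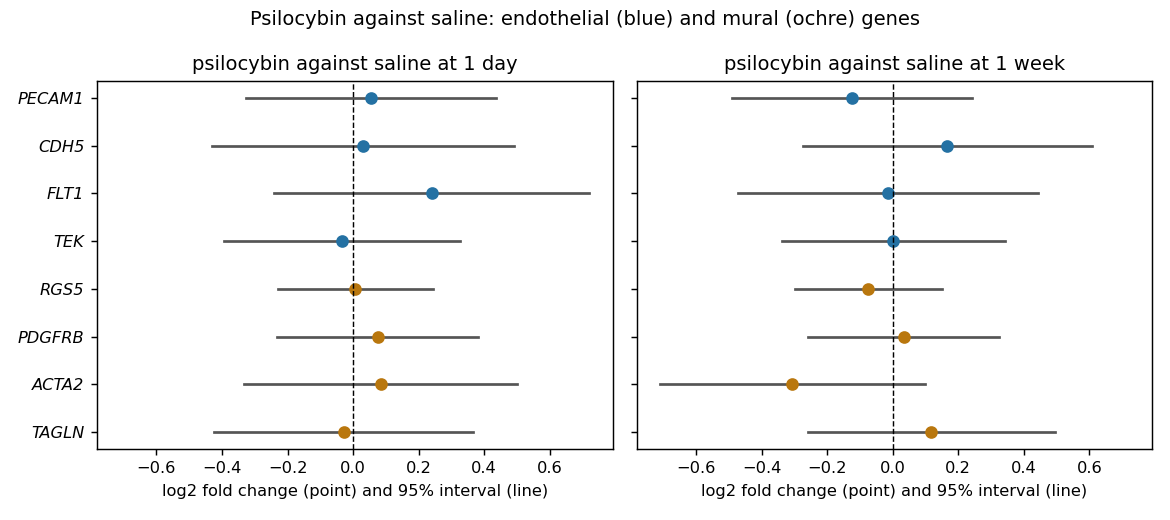
Log2 fold change of psilocybin against saline (horizontal axes; points, with 95% intervals as lines) for the 8 genes at 1 day and at 1 week. Every interval spans 0, with the largest values for FLT1 at 1 day (0.24) and ACTA2 at 1 week (-0.31).

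At 1 day, then, 0 of 8 vessel genes were called at an adjusted p under 0.05, where 0% of the 15049 tested genes were. At an unadjusted p under 0.05 the count was 0 of 8 against 2.83% of tested genes, and 0 of 8 had groups that did not overlap, against 0.126%. At 1 week the counts were again 0 of 8, beside 0% called after adjustment, 1.99% at an unadjusted p under 0.05 and 0.0465% without overlap. DESeq2 and limma-voom also called 0 of 8 at either time, with 0 of 8 at an unadjusted p under 0.05. Groups of 5 or 6 animals left room for differences: the 95% intervals reached from -0.43 (CDH5) to 0.72 (FLT1) at 1 day and from -0.71 (ACTA2) to 0.61 (CDH5) at 1 week. Signs were mixed, with 6 of 8 fold changes above 0 at 1 day (median log2 fold change 0.04, against 0.004 over all tested genes) and 4 of 8 at 1 week (median -0.006, against -0.003). They depended on a few libraries, since without the 3 standing apart 2 of 8 were above 0 at 1 day and 5 of 8 at 1 week.

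Within the batches the fold changes pointed in opposite ways. At 1 week in batch 1, with 3 animals a group, all 4 endothelial genes were above 0, at 0.19 for PECAM1, 0.33 for FLT1, 0.35 for TEK and 0.52 for CDH5 (log2). In batch 2 all 4 were below 0, at -0.45, -0.34, -0.37 and -0.18 in the same order. The library standing apart among these animals was a saline one in batch 1 (animal cor_sal_1w_245) and a psilocybin one in batch 2 (animal cor_psi_1w_427), and both had low endothelial scores (mean centred log2 CPM over the 4 genes of -0.49 and -0.67). None of these values passed, the nearest being CDH5 in batch 1 (adjusted p = 0.978 in edgeR's quasi-likelihood test). The mural genes split by batch less evenly: 2 of 4 were above 0 in batch 1 and 2 of 4 in batch 2, with PDGFRB at 0.23 and -0.15. At 1 day 2 of 8 genes were above 0 in batch 1 (median -0.05) and 7 of 8 in batch 2 (median 0.15), where saline animal cor_sal_1d_420 is.

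The difference between the psilocybin effects at the 2 times was tested in the same fit. It passed for 0 of 8 genes (0% of all tested genes), and 0 of 8 had an unadjusted p under 0.05, beside 2.02% of tested genes. ACTA2 had the largest value, a log2 difference of -0.39 ± 0.28 (SE; 95% interval -0.97 to 0.19).

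The saline animals show how the genes differ between 1 week and 1 day without the drug. All 8 were higher at 1 week, by 0.015 (CDH5) to 0.24 (FLT1) on the log2 scale, while 51.7% of all tested genes were. None of the 8 passed the test (0% of tested genes did), 0 of 8 had an unadjusted p under 0.05 (2.01% of tested genes), and 0 of 8 had groups without overlap (0.14%). Without the 3 libraries standing apart, 3 of 8 were higher and the median log2 fold change was -0.02 in place of 0.09. In the psilocybin animals, 5 of 8 were higher at 1 week than at 1 day, against 54.3% of tested genes. The largest values were -0.19 for ACTA2 and 0.17 for TAGLN (log2), 2 smooth muscle genes with opposite signs. Here too 0 of 8 passed (0% of tested genes), 0 of 8 had an unadjusted p under 0.05 (3.18%) and 0 of 8 lacked overlap (0.0664%). These 2 comparisons share their animals with the comparisons of psilocybin with saline.

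Although no group difference passed, the animals differed from each other in a patterned way. The 4 endothelial genes varied together from animal to animal. Across the 23 animals, their 6 pairs had Pearson correlations of log2 CPM from 0.70 to 0.86 (median 0.77), and 6 of 6 passed a permutation test with Benjamini-Hochberg adjustment over the 28 pairs of the 8 genes. CDH5 and FLT1 were the closest pair, with r = 0.86 and Spearman's rho = 0.87 (adjusted permutation p = 9.33e-05 for r). For that pair r was 0.83 without the 2 animals farthest from the median of CDH5, 0.72 in batch 1 and 0.89 in batch 2. For PECAM1 and FLT1 r was 0.76 and rho 0.75 (adjusted permutation p = 0.00028 for r), but 0.24 in batch 1 against 0.90 in batch 2. The median over the 6 endothelial pairs was 0.50 in the 11 animals of batch 1, 0.87 in the 12 of batch 2, 0.78 after group and batch means were removed, and 0.73 without the 3 libraries standing apart. In batch 1 alone 0 of the 28 pairs passed the adjusted test. All genes of a library share its RNA and its scaling.

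The mural genes did not form such a group. Their 6 pairs had r from -0.40 (PDGFRB and RGS5) to 0.38 (PDGFRB and TAGLN) with a median of 0.00, and 0 of 6 passed the permutation test. Genes of pericytes and of smooth muscle are both among the 4, and the 2 smooth muscle genes ACTA2 and TAGLN had r = 0.17 with each other. The 4 carry the mural label as known markers, and they did not vary together here. Of the 16 pairs of an endothelial and a mural gene, 3 passed, all with PDGFRB: r was 0.59 with PECAM1, 0.61 with CDH5 and 0.60 with FLT1 (adjusted permutation p = 0.0125, 0.00788 and 0.0105). Without the 3 libraries standing apart r was -0.16, 0.11 and 0.09, and over all animals the rank correlations were 0.21, 0.41 and 0.35. The relation was closer in batch 2, which holds 2 of those libraries, with r = 0.86, 0.92 and 0.92, against 0.22, 0.70 and 0.55 in batch 1. After group and batch means were removed, with all 23 animals, PDGFRB had r = 0.78 with PECAM1, 0.87 with CDH5, 0.83 with FLT1 and 0.63 with TEK, and all 4 passed the adjusted permutation test. The same removal was not run without the 3 libraries. Without those libraries PDGFRB and ACTA2 had r = -0.69 (adjusted permutation p = 0.00364), but -0.18 over all animals, -0.66 in batch 1, 0.22 in batch 2 and -0.04 after group and batch means were removed. FLT1 and RGS5 likewise had r = 0.61 without them (adjusted permutation p = 0.0154), but 0.14 over all animals, -0.07 and -0.01 within the batches and -0.05 after the removal.

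**Figure D3:**
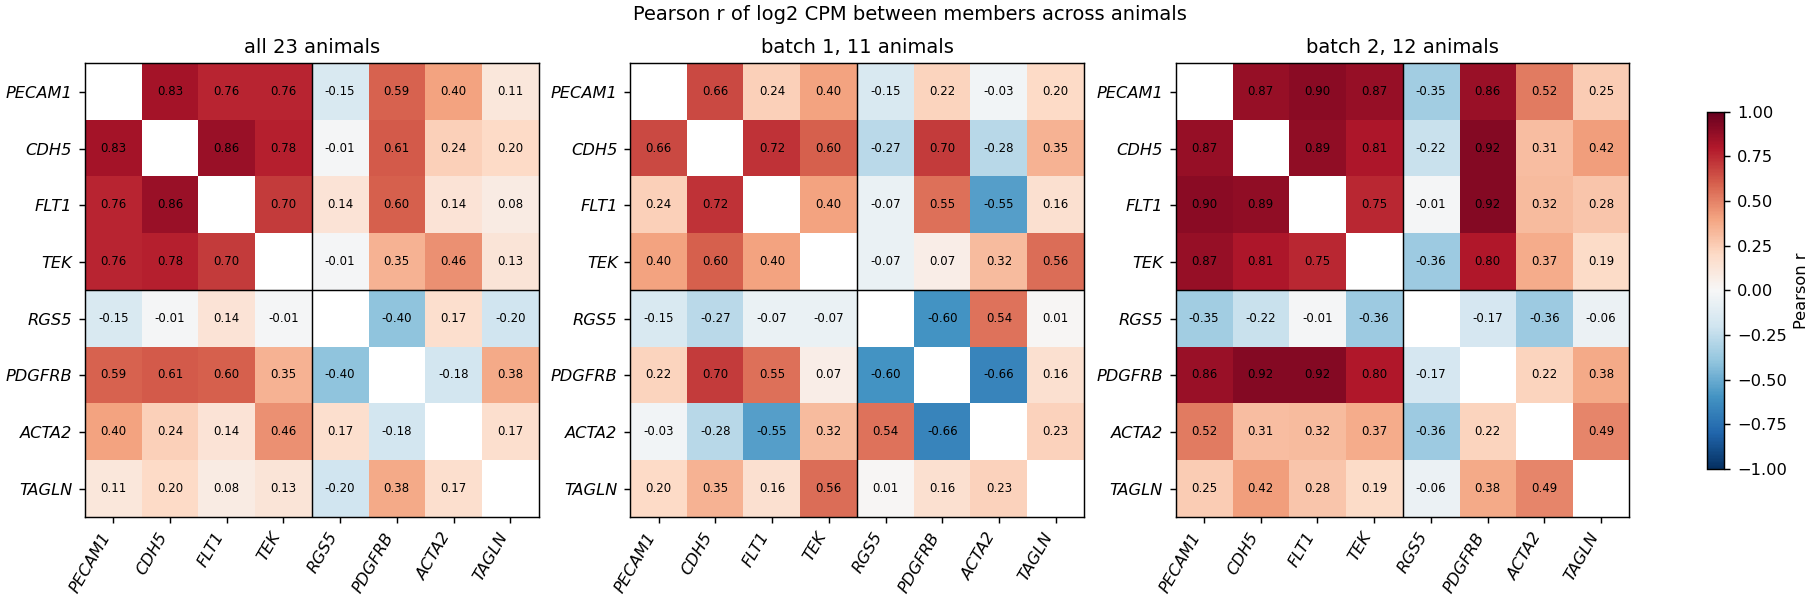
Pearson r of log2 CPM for each pair of the 8 genes (both axes list the genes; colour and printed value give r), over all 23 animals and within each batch. The endothelial block at the upper left is red in all 3 panels, with a median of 0.77, 0.50 and 0.87, while the mural block at the lower right has a median near 0.

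In the 3 libraries standing apart most, but not all, endothelial values were low. CDH5 had 9.9 CPM in cor_sal_1d_420, 11.5 in cor_sal_1w_245 and 11.9 in cor_psi_1w_427, all below the lowest of the other 20 animals at 13.7 CPM. FLT1 had 18.1, 19.9 and 24.7 CPM in the same order, where the others had a lowest value of 24.6 and a median of 41.8 CPM. PECAM1 had 12.6, 16.1 and 10.8 CPM, the second of these above the lowest of the others at 15.7 CPM. TEK had 6.93, 7.46 and 5.08 CPM, and only the last lay below the range of the others (6.09 to 11.6 CPM, median 8.55). RGS5, a pericyte gene, was not low in them, at 130, 125 and 172 CPM against a median of 116 CPM in the others, and animal cor_psi_1w_427 had the highest RGS5 value of all. PDGFRB had 36.6, 51 and 37.3 CPM, against a lowest value of 51.1 CPM in the others. As a mean of centred log2 CPM over the 4 genes, the endothelial score was -0.69, -0.49 and -0.67 in these animals, the 3 lowest of 23. Their mural scores were -0.38, 0.13 and -0.20. The library next to them on the first principal component, cor_psi_1d_255, had an endothelial score of -0.09. The summed CPM of the oligodendrocyte genes MBP, MOG and MAG was high in 2 of the 3 libraries standing apart. It was 16400 in cor_sal_1d_420 and 9880 in cor_sal_1w_245, the highest of 23. It was 6240 in cor_psi_1w_427, against 1970 to 8280 in the other 20. MBP makes up most of the sum, with a mean of 5200 CPM against 304 for MAG and 35.8 for MOG. As a mean of centred log2 CPM, the score of these genes was 0.95, 0.33 and -0.08 in the same order. Another library, cor_psi_1d_258, had 0.57, so by score only cor_sal_1d_420 was above all others. Over all animals this oligodendrocyte score had r = -0.28 with the endothelial score, and -0.03 without the 3 libraries. The part of these genes in the endothelial levels was not tested.

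A score over 43 cytosolic ribosomal protein genes moved against the endothelial one. The 3 libraries standing apart had ribosomal scores of 0.88, 0.67 and 0.40. Over the 23 animals the 2 scores had r = -0.82 and rho = -0.78, with r = -0.63 in batch 1, -0.84 in batch 2, and -0.67 without the 3 libraries. Both scores come from the same libraries and share their scaling to library size. For the first principal component, computed after batch means were removed, r with the endothelial score was -0.68, and -0.30 without the 3. The sign of that component is arbitrary and was set to rise with ribosomal protein genes. The genes it was computed over include the endothelial ones. The endothelial score keeps the batch difference. Total count had r = 0.10 with the endothelial score. The mural score followed the ribosomal score less closely, with r = -0.45 over all animals, 0.12 in batch 1 and -0.71 in batch 2. These values are descriptions, and the part of the ribosomal signal in the endothelial levels was not tested.

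**Figure D4:**
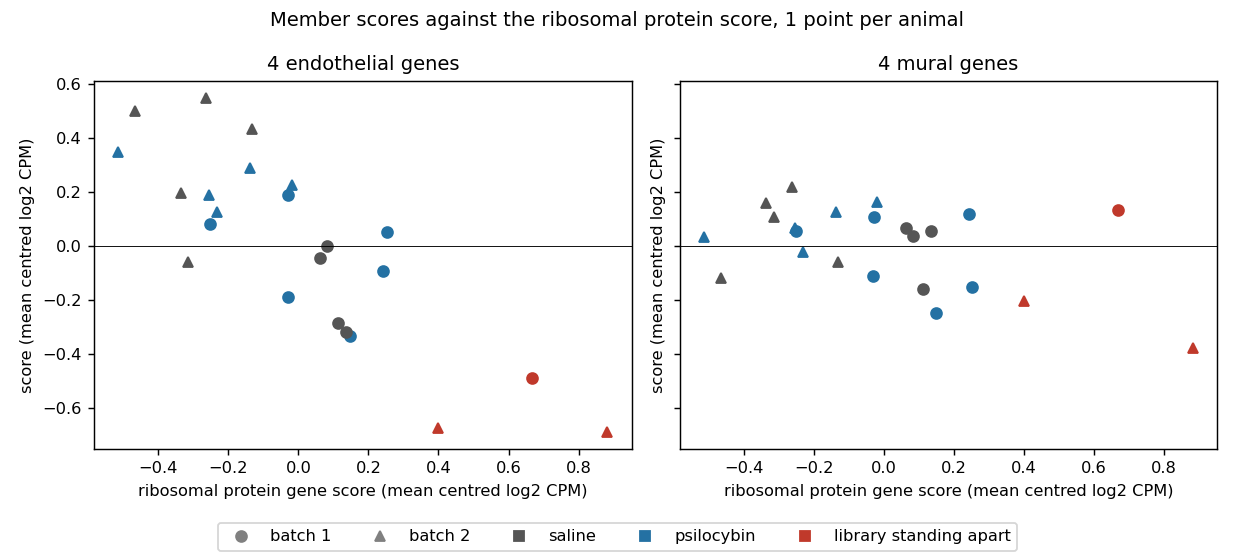
Endothelial (left) and mural (right) score of each animal, as mean centred log2 CPM over 4 genes, against the score of 43 ribosomal protein genes on the horizontal axis, with batch as symbol and the libraries standing apart in red. The endothelial points run from upper left to lower right (r = -0.82), and the mural points spread less and follow less closely (r = -0.45).

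More genes differed between the batches than between any treatment or time groups. Of the 8, RGS5 alone was called (1 of 8), where 32.9% of tested genes were: it had 114 ± 10.9 CPM (SD, n = 11) in batch 1 and 133 ± 20.9 CPM (SD, n = 12) in batch 2. The 2 batches overlapped, running from 92.2 to 127 CPM and from 104 to 172 CPM. RGS5 was higher in batch 2 by 0.22 ± 0.08 on the log2 scale (SE; adjusted p = 0.0393 in edgeR's quasi-likelihood test with Benjamini-Hochberg adjustment), a call that was lost on leaving out any of 9 single animals (cor_psi_1d_417, cor_psi_1w_246, cor_psi_1w_251, cor_psi_1w_423, cor_psi_1w_427, cor_sal_1d_256, cor_sal_1d_418, cor_sal_1w_254 or cor_sal_1w_424, as the labels title them). At an unadjusted p under 0.05 there were 5 of 8 genes, beside 43.6% of tested genes, and 0 of 8 had batches that did not overlap (0.545% of tested genes).

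Endothelial means were also higher in batch 2, at 17 ± 3.48 and 21.5 ± 6.18 CPM for CDH5 and at 33.5 ± 6.97 and 42.2 ± 12.6 CPM for FLT1 (SD, n = 11 and 12). Their log2 differences of 0.19 (PECAM1), 0.29 (TEK), 0.35 (FLT1) and 0.36 (CDH5) did not pass, with adjusted p from 0.0718 to 0.267 in edgeR's test. Without the 3 libraries standing apart, 6 of 8 genes were called, where 38.4% of tested genes were. All 4 endothelial genes were then higher in batch 2, by 0.32 (PECAM1) to 0.48 (CDH5) on the log2 scale, and so were ACTA2 by 0.48 and RGS5 by 0.19. The count was 5 on leaving out animal cor_sal_1d_420 alone, 4 without animal cor_psi_1w_427 and 2 without animal cor_sal_1w_245. PDGFRB and TAGLN had values in the other direction, -0.18 and -0.23 with all libraries and -0.08 and -0.12 without the 3, and did not pass in either. Genes of other cell types differed between the batches as well, beside 32.9% of all tested genes called with all libraries. Of 6 astrocyte genes, 4 were called, all higher in batch 2 (SLC1A2 by 1.54 and AQP4 by 0.56, log2), and 2 were lower without a call. All 4 microglia genes tested were lower and called (CX3CR1 at -0.54). All 5 blood cell genes were lower, and 3 of them were called (HBB at -1.73). Of 7 neuron genes, 4 were called, 2 higher and 2 lower. The part of these cell types in the vessel gene values was not tested.

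**Figure D5:**
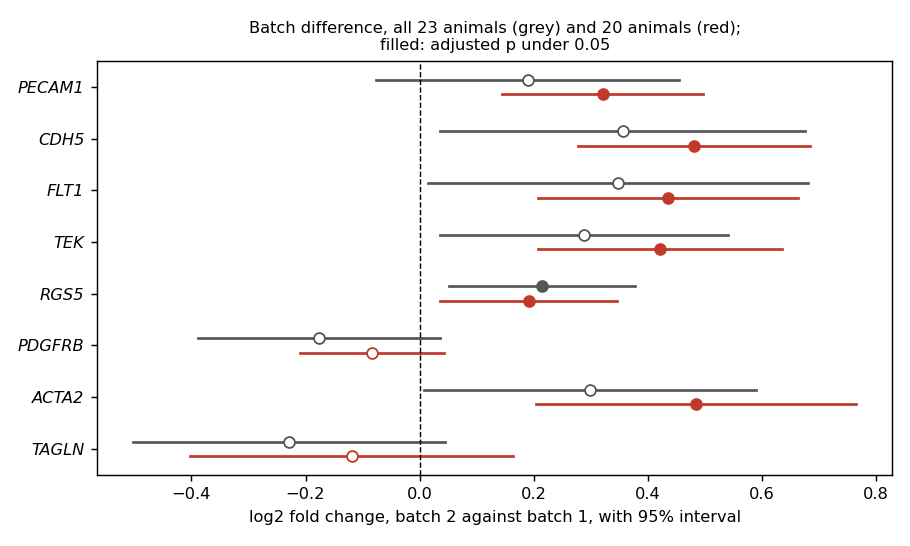
Log2 fold change of batch 2 against batch 1 (horizontal axis; points, with 95% intervals as lines) for the 8 genes. Grey points use all 23 animals, and red points the 20 left without the 3 libraries standing apart. Filled points had an adjusted p under 0.05 in edgeR's test. RGS5, at 0.22, was the only gene called with all libraries, and 6 of 8 genes were called without the 3.

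Other genes of the vessel wall and its signalling gave the same lack of calls between treatment groups. Of 17 other endothelial genes tested, 14 had values above 0 at 1 day and 8 at 1 week (median log2 fold change 0.08 and -0.007), and none passed at either time. Over all tested genes, 51.4% were above 0 at 1 day and 48.8% at 1 week. Saline animal cor_sal_1d_420 had a score of -0.40 over this list, where the psilocybin animals at 1 day ran from -0.06 to 0.135. The list counts were not computed without that library. SOX18, an endothelial transcription factor, had -0.33 ± 0.23 (SE) and TJP1, the tight junction scaffold ZO-1, had 0.13 ± 0.11 (SE) at 1 week. Of 6 blood-brain barrier transporters and receptors, 4 were above 0 at each time and none passed, with 0.32 ± 0.21 (SE) at 1 day for the insulin receptor INSR and 0.23 for the amino acid transporter gene SLC7A5. Of 10 genes of VEGF, angiopoietin and PDGF-B signalling, 8 were above 0 at 1 day and 4 at 1 week, and none passed. Among them FLT4, which encodes VEGF receptor 3, had a log2 fold change of 0.93 at 1 week (adjusted p = 1 in edgeR's test), at means of 0.518 to 1.04 CPM in the 4 groups, close to the lower limit of the filter. NRP2, a VEGF co-receptor gene, had 0.24 at 1 day.

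The mural lists had no calls either. Of 12 other pericyte genes, 7 were above 0 at 1 day and 6 at 1 week (medians 0.05 and 0.02). Of 12 other smooth muscle genes, 4 were above 0 at 1 day and 5 at 1 week (medians -0.06 and -0.02), and neither list had a gene that passed. In the pericyte list HIGD1B had -0.36 ± 0.20 (SE) at 1 day and -0.33 ± 0.19 at 1 week, while ANPEP, which encodes aminopeptidase N, had 0.44 ± 0.27 and -0.21 ± 0.27. In the smooth muscle list the intermediate filament gene DES had -0.27 at 1 day and 0.04 at 1 week, and the calponin gene CNN1 0.006 and -0.20. Genes of cells next to vessels varied more: 8 fibroblast and meningeal genes had a median of -0.12 at 1 day and 0.30 at 1 week, and 5 blood cell genes 0.66 and 0.35, again with none passing. The collagen gene COL3A1 had 0.69 at 1 week and the proteoglycan gene DCN -0.71 at 1 day. HBM, a globin gene, had 1.28 ± 0.63 (SE) at 1 day, at means of 0.376 to 1.14 CPM in the 4 groups and a median of 5 reads. Summed CPM of the 5 blood cell genes was 524 in animal cor_psi_1d_259, against a median of 81.5 in its group. PTPRC, the leukocyte antigen CD45, had 0.35 ± 0.24 (SE) at 1 week. The defining perivascular macrophage genes CD163 and LYVE1 did not pass the filter on low counts, while F13A1 had 0.23 at 1 week. MRC1 had -0.53 ± 0.43 (SE) at 1 day, at low group means of 0.849 to 1.34 CPM.

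Between the batches genes of these lists passed in both directions, in shares to be read against the 32.9% of all tested genes: 6 of 17 other endothelial genes, 2 of 6 barrier genes, 4 of 10 signalling genes, 3 of 12 pericyte genes, 5 of 12 smooth muscle genes and 0 of 8 fibroblast genes. Nothing particular to a list is read from these counts. In the endothelial list CLEC14A (0.43), TJP1 (0.37) and CAV1 (0.28) were higher in batch 2 and EGFL7 (-0.37), TIE1 (-0.33) and RAMP2 (-0.24) lower (log2). All 4 signalling genes that passed were higher, namely the VEGF co-receptors NRP1 (0.57) and NRP2 (0.58), the angiopoietin gene ANGPT1 (0.53) and the phosphatase gene PTPRB (0.33). Of the smooth muscle genes that passed, SYNPO2 (0.39) was higher and TPM2 (-0.44), MYL9 (-0.35), DES (-0.32) and CNN1 (-0.28) were lower. In the pericyte list the channel subunit gene ABCC9 (0.89) was higher, with GJA4 (-0.43) and NDUFA4L2 (-0.37) lower.

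The genes whose animal-to-animal pattern was most like the endothelial score, after group and batch means were removed, were ALPL (r = 0.95), LTBP4 (0.91), ADGRF5 (0.91), ANO2 (0.90), TGM2 (0.90) and SEMA3G (0.90), over 23 animals. ADGRF5 is a member of the other endothelial list, whose 17 genes had a median r of 0.68 with the score. That median was 0.58 for the 6 barrier transporters, 0.51 for the 8 fibroblast and meningeal genes, 0.50 for the 10 signalling genes, 0.43 for the 12 pericyte genes, 0.31 for the 7 neuron genes and 0.25 for the 12 smooth muscle genes. It was -0.18 for the 6 astrocyte genes and -0.14 for the 3 oligodendrocyte genes, against 0.06 for all tested genes. By median the order did not follow the vessel layers, since fibroblast and neuron genes lay above the smooth muscle genes. The lists overlapped widely, from -0.75 to 0.58 for neuron genes, -0.60 to 0.80 for smooth muscle and 0.26 to 0.70 for fibroblast genes. The list of other endothelial genes thus had the highest median of the lists. These medians used all 23 libraries and were not computed without the 3 standing apart. List scores, with group and batch means kept, were compared with the endothelial score both ways. Without the 3, r went from 0.86 to 0.70 for the other endothelial list and from 0.87 to 0.82 for the barrier list. It went from 0.76 to 0.48 for the pericyte list, 0.31 to -0.36 for smooth muscle and 0.26 to 0.64 for astrocyte genes. The mural score had looser companions, with PGLYRP4 (0.80), KIAA0040 (0.76), CLCN5 (0.74), NRG2 (0.70), TGM2 (0.70) and N4BP1 (0.69). Its median r was 0.25 with the pericyte list and 0.19 with the smooth muscle list, below the 0.39 with the endothelial list and 0.52 with the 8 fibroblast and meningeal genes.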

How the data were processed

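RNA from prefrontal cortex was sequenced after poly-A selection, per the labels' protocols. The submitters' processing notes name fastp 0.20.0, STAR 2.6c, featureCounts 1.5.1 and the build susScr11. The authors deposited estimated counts per Ensembl gene, with reads counted in fractions, per the file headers. RGS5, PDGFRB and FLT1 overlapped no other gene of the table, and 34.8%, 52.2% and 60.9% of their values were whole. The source of their fractions was not tested. Per the same headers, only primary alignments were used and strand was ignored, which can mix antisense neighbours. Of the values, 72.2% were whole. Rounding changed no library total by more than 0.001%. The deposited exon length gave RPKM. Symbols came from the reference name table.

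Genes were kept by edgeR's filterByExpr (minimum count 10, total 15). Counts were scaled by TMM and tested with edgeR 4.0.16 in R 4.3.3 by the robust quasi-likelihood test over 23 libraries with group and batch as terms. Benjamini-Hochberg adjustment ran over all tested genes, with a call at an adjusted p under 0.05. DESeq2 1.42.0 and limma 3.58.1 (voom) were alternatives. Log2 CPM used a prior count of 2. Correlations had permutation tests with 100000 resamples, two-sided. The model code was tested on simulated data.

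Named genes were all members found, the 2 genes of each other list with the smallest p in either comparison of psilocybin with saline, list genes called or with p under 0.01 in any comparison, and the 6 genes most like each score. The text prints those of the vessel lists and of the cells next to vessels, and of the other lists only those set beside a vessel gene result. Members and lists were chosen with earlier results of these data known. The alternatives were other scaling, filters, tools and designs, each batch alone, and leaving out each animal. Leaving out the 3 libraries standing apart was chosen after seeing the data. Titles carry separate animal numbers, and litters are not given, so p-values measure the spread between these animals. An oligodendrocyte list gene is not reported here, and the list's values were computed without it.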

Additional observations from a re-analysis of the deposited data

Results flagged for a closer look

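PDGFRB in psilocybin at 1 week had 1 animal far from the rest of its group. Animal cor_psi_1w_427 had 37.3 CPM and the next lowest of the 6 animals had 64.7 CPM, a gap of 0.751 of the whole range of the group, above Dixon's critical value of 0.625. It was the only 1 of 32 combinations of a gene and a group that passed this limit, and chance alone passes about 1 in 20.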

How the results depend on the processing

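In the 5 treatment and time comparisons, 0 of 8 vessel genes were called under every alternative run. Over all genes, where edgeR called 0 (303 and 479 at an unadjusted p under 0.05), DESeq2 called 1 gene between the times after saline and 1 after psilocybin, and leaving out each animal gave 0 to 1 in both (1 without animal cor_psi_1d_415 or cor_psi_1w_427). Between batches, 1 vessel gene was called with all libraries, 2 with DESeq2, 6 without the 3 libraries standing apart, and 0 to 5 on leaving out each animal. In batch 1 alone 0 pairs of vessel genes passed the adjusted permutation test, where 9 did over all animals, 10 in batch 2 alone, 10 after group and batch means were removed and 8 without the 3 libraries. The cause of these changes was not tested. Batch 1 alone holds 11 animals and batch 2 alone 12. Of the vessel genes' log2 fold changes under alternatives, 1520 kept their value within 1 SE and their side of the threshold, 47 moved further, 16 gained a call and 9 lost one. RGS5 remained the gene of highest level by CPM in place of RPKM. CDH5 changed place with PECAM1, and TEK and TAGLN also changed rank. Low counts limit TAGLN, ACTA2 and TEK most. No paired analysis was possible because the groups share 0 animal numbers.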
